A study of Mus musculus with 20 samples.

Results

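The small proline-rich genes *Sprr1a*, *Sprr2a1*, *Sprr2a2* and *Sprr2a3* are followed here through a mouse study of *Mettl3*, which encodes the catalytic subunit of the enzyme that writes m6A on RNA. They are 4 of the 54838 gene rows in the files, and they were chosen by their measured FPKM in knockout tissue at day 6 against WT, as being among the largest rises. Day 6 values are therefore a description, with no test. The 3 *Sprr2a* copies are near-identical, so their summed FPKM (fragments per transcript length and library depth) is given beside each of them.

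RNA was sequenced from C57BL/6 mice in 20 libraries. The tissue set holds 12 libraries of crypt cells sorted on an EGFP reporter driven from *Lgr5*, the marker of crypt stem cells. Knockout cells came from *Mettl3*fl/fl mice that also carry Lgr5-EGFP-IRES-CreERT2 and Villin-CreERT2, so the tamoxifen-inducible Cre is active in the intestinal epithelium. Libraries labelled *Mettl3*-/- were taken at day 6 (2 libraries, no gate in the labels), at day 4 (2 libraries of each gate) and at day 3 (1 of each gate), after 4 days of tamoxifen at 20 mg/ml. Wild type (WT) cells gave 2 libraries of each gate, labelled untreated, although the protocol text gives tamoxifen to floxed mice without Cre as well. The organoid set holds 8 libraries of epithelium grown from the Cre-carrying mice, with 2 libraries per group. Of these, 6 are labelled *Mettl3*-/- and had 2 days of 4-hydroxytamoxifen: 2 with AKFP (retroviral *Ascl2*, *Klf9*, *Fosb* and *Purb*), 2 with AKF (the same without *Purb*) and 2 with no factor named. The WT organoids had 2 days of ethanol. Drug and genotype cannot be told apart in either set. A further tag in the titles, of unstated meaning, is carried by WT organoids and by knockout organoids without a factor.

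Small proline-rich proteins are short, soluble proteins that transglutaminases cross-link into the cornified envelope beneath the membrane of squamous cells such as keratinocytes. Their genes lie together in the epidermal differentiation complex, which also holds those of involucrin, loricrin, filaggrin and the S100 calcium-binding proteins. In mouse gut, where no cornified layer forms, *Sprr2a* is known to be induced by bacterial colonisation and by type 2 cytokines, and its product has been described as bactericidal. *Sprr1a* is known as a gene of injured and stressed cells, in nerve, heart and regenerating epithelium.

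All 4 genes lie on mouse chromosome 3 (mm10, which is GRCm38). GENCODE M21 places *Sprr2a1* at chr3:92215799-92221911, *Sprr2a2* at chr3:92215920-92256724 and *Sprr2a3* at chr3:92285417-92291405, all on the plus strand. *Sprr1a* is at chr3:92483952-92485895 on the minus strand. A *Sprr2a2* transcript is annotated to begin inside the first exon of *Sprr2a1*, so these annotations overlap. The coding sequences show what gives the family its name and how alike the copies are. They are from GENCODE M21 transcripts, 5′ to 3′, whole without the stop codon for *Sprr2a1* (chr3:92219092-92219340) and the first 300 of 432 bases for *Sprr1a* (within chr3:92484261-92484692), with in-frame proline codons (CCN) in capitals:
Sprr2a1: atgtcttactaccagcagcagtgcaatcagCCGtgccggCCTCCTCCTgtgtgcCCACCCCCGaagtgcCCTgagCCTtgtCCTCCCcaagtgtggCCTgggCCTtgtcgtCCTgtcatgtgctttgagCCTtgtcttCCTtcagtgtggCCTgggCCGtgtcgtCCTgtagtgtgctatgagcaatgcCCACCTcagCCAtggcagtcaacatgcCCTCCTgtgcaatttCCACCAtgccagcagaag
Sprr1a: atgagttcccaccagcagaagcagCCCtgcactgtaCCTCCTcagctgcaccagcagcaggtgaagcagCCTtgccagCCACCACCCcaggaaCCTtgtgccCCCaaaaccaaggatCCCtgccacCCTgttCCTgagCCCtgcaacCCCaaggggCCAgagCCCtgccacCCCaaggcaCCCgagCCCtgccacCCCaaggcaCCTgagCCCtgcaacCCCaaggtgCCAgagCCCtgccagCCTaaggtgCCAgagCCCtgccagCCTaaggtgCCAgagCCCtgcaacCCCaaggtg
Proline codons make up 26 of the 83 codons of *Sprr2a1* (31.3%) and 46 of the 144 codons of *Sprr1a* (31.9%). The *Sprr2a2* coding sequence is identical to that of *Sprr2a1*. *Sprr2a3* differs from *Sprr2a1* at 3 positions, counted from 1 at the A of the start codon (G63A, G159T and A192T, *Sprr2a1* base first). Over whole transcripts, 88.4% of the 100-base words of *Sprr2a1* are also in *Sprr2a2* and 34.7% are also in *Sprr2a3*. None is shared between *Sprr1a* and any *Sprr2a* copy.

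The sequence upstream of the genes is shown as a description, and no link between it and their levels was tested. The windows run 250 to 51 bases before each RefSeq start (GRCm38.p6), 5′ to 3′ on the gene's strand, with capitals for the AP-1 motif TGANTCA, which reads the same on both strands:
Sprr2a1, chr3:92215585-92215784: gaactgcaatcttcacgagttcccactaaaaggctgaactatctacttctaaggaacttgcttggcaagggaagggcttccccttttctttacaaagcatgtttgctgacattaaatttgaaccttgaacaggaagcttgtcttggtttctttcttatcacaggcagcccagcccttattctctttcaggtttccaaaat
Sprr2a3, chr3:92285054-92285253: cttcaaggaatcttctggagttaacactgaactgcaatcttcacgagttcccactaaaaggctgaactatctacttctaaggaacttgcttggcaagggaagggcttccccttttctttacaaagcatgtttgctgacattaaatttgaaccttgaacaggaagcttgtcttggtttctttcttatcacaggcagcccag
Sprr1a, chr3:92485932-92486131: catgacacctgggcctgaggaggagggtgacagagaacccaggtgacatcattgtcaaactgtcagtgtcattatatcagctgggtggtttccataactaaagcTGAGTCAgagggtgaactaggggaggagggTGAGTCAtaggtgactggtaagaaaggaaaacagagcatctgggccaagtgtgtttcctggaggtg
The *Sprr2a2* window, chr3:92250397-92250596, has the same 200 bases as that of *Sprr2a1*. The *Sprr2a3* window shares an unbroken run of 172 bases with them, set off by the annotated start. The AP-1 motif occurred 2 times before *Sprr1a*, beginning 146 and 116 bases before its start, and in no *Sprr2a* window. It was found in 5.55% of the 32514 distinct windows of this kind in the mouse table, and in 9 of the 14 small proline-rich genes that the table holds. An octamer, ATTTGCAT on either strand, was in 7 of the 14 family windows and in 1.33% of all windows. It was not in the window of *Sprr1a* or of any *Sprr2a* copy. A STAT motif, TTCNNNGAA, the same on both strands, was in the *Sprr2a3* window and in 5.79% of all windows. A pair of GAAA letters with any 2 bases between them, on either strand, was in 2.4% of all windows and in none of the family's. A match is a string of letters, and a missing match covers these 200 bases only.

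The libraries had an estimated 14800000 to 25700000 fragments each, a rough figure read from the steps between low values. *Mettl3* itself stood at 2.75 to 4.99 FPKM in knockout tissue and 3.42 to 4.86 FPKM in WT tissue, which cannot check the loss of an exon. The sorted cells had the defining marker of epithelium, *Epcam*, at 381 to 563 FPKM in all 12 tissue libraries. *Lgr5* was at 0.340 and 1.27 FPKM at day 6, against 10.2 and 10.4 FPKM in Lgr5-high cells of WT. In Lgr5-low cells of WT it averaged 0.844 FPKM, so the day 6 values were like those of that gate. Some tissue libraries stood apart. *Pla2g2a*, a secreted phospholipase of Paneth cells that differs between mouse strains, was at 371 and 109 FPKM at day 6 and at 87.9 and 107 FPKM in the second day 4 library of each gate, against 1482 to 4723 FPKM in the other 8 tissue libraries. The first day 6 library also had the highest FPKM sum of all 20, 763177, and the header of its column names a low gate. Nothing in the labels ties libraries to separate mice or cultures, so p-values measure only the spread between these libraries. In bulk RNA, fewer cells of a type and less RNA per cell cannot be told apart.

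In sorted crypt cells the summed *Sprr2a* level was lowest in WT Lgr5-high cells, higher at day 4 than in WT of the same gate, and highest at day 6. The *Sprr2a* sum was at 4.65 and 1.28 FPKM in WT Lgr5-high cells and at 31.8 and 6.26 FPKM in WT Lgr5-low cells. At day 3 it was at 5.08 FPKM in the knockout Lgr5-high library and at 19.1 FPKM in the knockout Lgr5-low library. At day 4 it was at 26.9 and 64.0 FPKM in knockout Lgr5-high cells and at 128 and 397 FPKM in knockout Lgr5-low cells. At day 6 it was at 1347 and 650.3 FPKM. The single day 3 library of the Lgr5-low gate lay inside the WT range of its gate, and that of the Lgr5-high gate lay just above its own. Both day 4 libraries of each gate lay above both WT libraries of the same gate, and both day 6 libraries lay above all the others.

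*Sprr1a* stayed close to the limit of detection until day 6. It was at 0.0487 and 0.138 FPKM in WT Lgr5-high cells and 0.491 and 0.238 FPKM in WT Lgr5-low cells, which is an estimated 1.01 to 10.2 fragments per library. At day 3 it was at 0.142 FPKM in the Lgr5-high gate and 0.162 FPKM in the Lgr5-low gate, an estimated 1.95 and 2.55 fragments. At day 4 it was at 0.828 and 0.598 FPKM in knockout Lgr5-high cells and at 0.929 and 3.07 FPKM in knockout Lgr5-low cells. At day 6 it was at 61.8 and 11.2 FPKM. The 2 day 6 libraries thus differed from each other more for *Sprr1a* than for the *Sprr2a* sum, and both lay above every other tissue library.

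**Figure D1:**
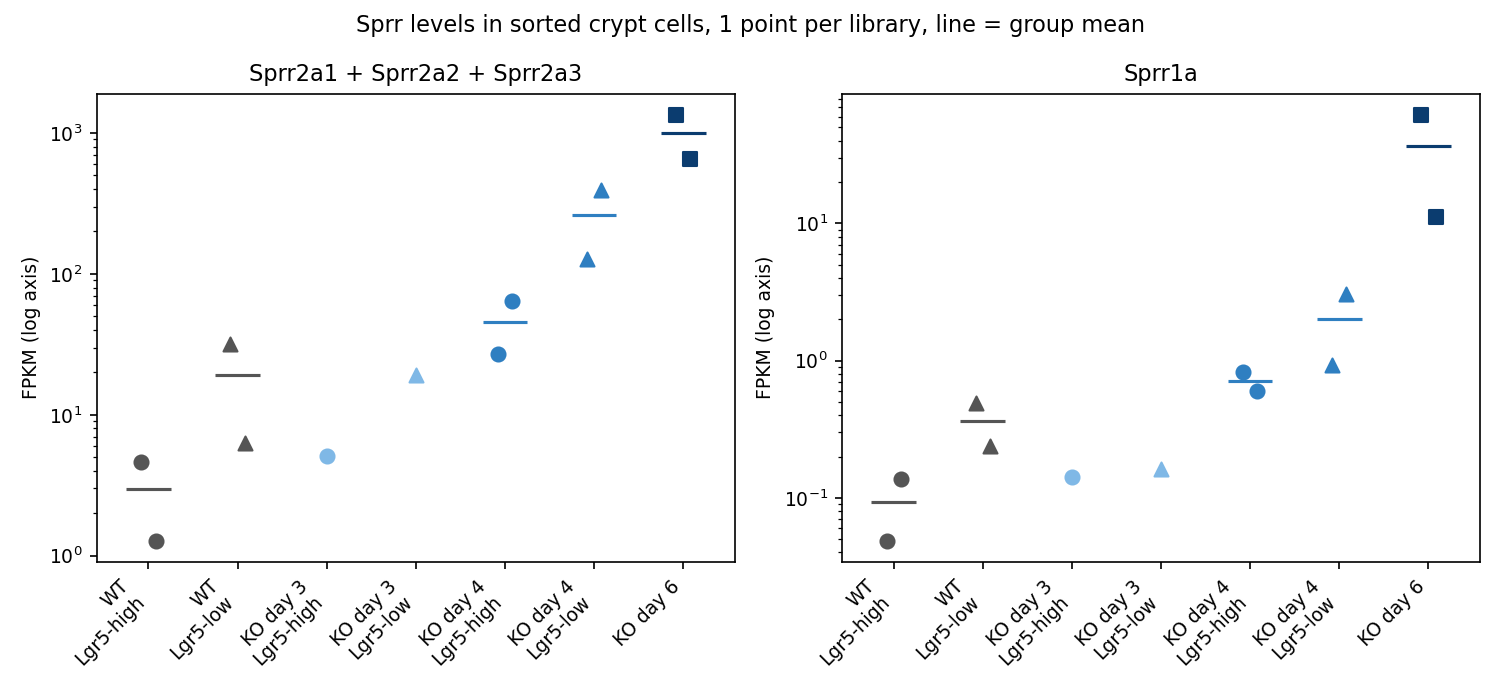
FPKM on a log axis (y) of the Sprr2a sum (left) and Sprr1a (right) in sorted crypt cells by group (x); each point is 1 library, circles are Lgr5-high, triangles Lgr5-low and squares day 6, and lines are means of groups with 2 libraries. The day 6 squares, at 650.3 and 1347 FPKM for the Sprr2a sum and 11.2 and 61.8 FPKM for Sprr1a, lie above every other library.

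The day 6 values chose these genes, so the differences are given without a test. Both day 6 libraries also had *Pla2g2a* below the WT range, at 371 and 109 FPKM, and a link to these differences was not tested. On the log2(FPKM + 1) scale, which understates changes of low genes, the *Sprr2a* sum was 8.03 higher at day 6 than in WT Lgr5-high cells and 5.92 higher than in WT Lgr5-low cells. *Sprr1a* was 4.66 higher than in WT Lgr5-high cells and 4.35 higher than in WT Lgr5-low cells. Ranked by the difference from the higher WT gate over 12899 genes, *Sprr2a2* had rank 1 (6.66), *Sprr2a1* rank 2 (5.49), *Sprr2a3* rank 5 (5.06) and *Sprr1a* rank 8 (4.35). Their neighbours in rank were *Cbr3*, a carbonyl reductase (5.28), *Isg15*, an interferon-induced ubiquitin-like protein (5.09), *Ly6a*, which encodes the surface protein Sca-1 (4.995), *Ifit1bl1* (4.81) and *Anxa8*, an annexin (4.14). *Sprr2a2* is listed at 0 in the second WT Lgr5-low library, and without that library its difference from WT Lgr5-low was 4.69. Both day 6 libraries lay above all 4 WT libraries for all 4 genes, which the choice of members fixes, and for 19.3% of the 12899 genes, while 26.2% had both below. Against day 4, the *Sprr2a* sum at day 6 was 4.46 above knockout Lgr5-high and 2.05 above knockout Lgr5-low cells. *Sprr1a* at day 6 was 4.02 above knockout Lgr5-high and 3.30 above knockout Lgr5-low cells.

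At day 4 every knockout library held more *Sprr2a* than every WT library of its gate, but with 2 libraries a group the difference did not pass the test over all genes. The WT libraries here are the ones that entered the choice of genes, so these comparisons are not independent of it. In Lgr5-high cells the *Sprr2a* sum averaged 45.4 ± 26.2 FPKM in knockout and 2.97 ± 2.39 FPKM in WT (SD, n = 2 each). The fitted log2 change was 3.57 ± 0.83 (SE; limma adjusted p = 0.0867), with a 95% interval of 1.67 to 5.46. In Lgr5-low cells it averaged 262 ± 190.4 FPKM in knockout and 19.0 ± 18.0 FPKM in WT (SD, n = 2 each). Here the log2 change was 3.88 ± 0.83 (SE; limma adjusted p = 0.0978), with a 95% interval of 1.98 to 5.77. None of the 4 genes was called in either gate at an adjusted p under 0.05, while 0.729% of the 12899 genes were called higher and 0.326% lower in Lgr5-high cells, and 0.279% higher and 0.194% lower in Lgr5-low cells. At an unadjusted p under 0.05, the 3 near-identical *Sprr2a* copies passed in both gates and *Sprr1a* in neither, while 2182 of the 12899 genes passed in Lgr5-high and 1768 in Lgr5-low. The copy nearest to the threshold was *Sprr2a1*, with a change of 3.26 in Lgr5-high (limma adjusted p = 0.0677) and 3.49 in Lgr5-low (limma adjusted p = 0.0773). The difference between the day 4 changes of the Lgr5-high and Lgr5-low gates, a contrast added after the data were seen, was -0.31 for the sum, with a 95% interval of -2.99 to 2.38 (limma adjusted p = 0.975), where 0.0155% of genes were called, all lower.

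The day 4 libraries that stood apart on *Pla2g2a* were also those with more *Sprr2a* in each gate, and a link between these was not tested. With the second day 4 library left out, the change of the *Sprr2a* sum was 2.96 in Lgr5-high (limma adjusted p = 0.0964) and 3.06 in Lgr5-low (limma adjusted p = 0.424). The first day 4 libraries, which had *Pla2g2a* above the WT range, held the sum at 26.9 and 128 FPKM. The second ones, at 64.0 and 397 FPKM, were higher in both gates.

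*Sprr1a* was not called at day 4. Its log2 change was 0.65 in Lgr5-high cells (limma adjusted p = 0.640), with a 95% interval of -0.84 to 2.13. In Lgr5-low cells it was 1.04 (limma adjusted p = 0.543), with a 95% interval of -0.44 to 2.53. All 4 knockout libraries lay above all 4 WT libraries, but at 0.598 to 3.07 FPKM. *Sprr1a* entered the tissue fit only through day 6 and the second Lgr5-low library at day 4.

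Within WT, and within knockout of the same day, the *Sprr2a* sum was lower in every Lgr5-high library than in every Lgr5-low library. It was at 26.9 and 64.0 FPKM in knockout Lgr5-high cells at day 4 against 128 and 397 FPKM in knockout Lgr5-low cells. These values share no library with the choice of genes. The spread used by the test does, since it pools the 10 fitted tissue libraries, WT and day 6 among them. The log2 difference was -2.41 ± 0.83 (SE; limma adjusted p = 0.190). No gene of the 12899 was called in it by limma, and 2417 had an unadjusted p under 0.05, the threshold that the sum passed too. Without the second knockout Lgr5-high library, 776 genes were called higher and 960 lower, *Sprr2a1* (limma adjusted p = 0.0467) and *Sprr2a3* (limma adjusted p = 0.0459) among the lower, and the sum was at -3.02 (limma adjusted p = 0.0773). In WT the difference was -2.10 ± 0.83 (SE; limma adjusted p = 0.305), where 0.83% of genes were called lower and 0.372% higher in Lgr5-high. Those called lower included 5 of 9 enterocyte markers, such as *Alpi*, the brush border phosphatase (-3.27 ± 0.46, SE; limma adjusted p = 0.0174), and *Apoa1*, an apolipoprotein of absorptive cells (-4.35 ± 0.57, SE; limma adjusted p = 0.0162). *Reg3a*, of the bacteria-induced defence list, was also called lower in Lgr5-high (-3.10 ± 0.38, SE; limma adjusted p = 0.0155), and *Lgr5* higher (2.62 ± 0.36, SE; limma adjusted p = 0.0173). Of 8 listed genes called in WT, at most 1 was called when any 1 of the 4 WT libraries was left out. Enterocyte markers summed to 506 and 1022 FPKM in knockout Lgr5-high cells at day 4 against 2157 and 6577 FPKM in knockout Lgr5-low cells, and their part in the *Sprr2a* difference was not tested. *Sprr1a* was at or below 3.07 FPKM in both gates, and its gate difference was -0.71 in knockout at day 4 (limma adjusted p = 0.561) and -0.31 in WT (limma adjusted p = 0.862).

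In organoids the *Sprr2a* and *Sprr1a* genes parted. The *Sprr2a* transcripts were abundant in WT organoids, at levels like those of day 6 tissue although the sets were normalised apart, and they were not higher in knockout organoids, whereas *Sprr1a* rose 3.13-fold in knockout organoids. *Sprr1a* was at 77.9 and 77.9 FPKM in knockout and at 27.3 and 22.5 FPKM in WT organoids. The log2 change was 1.62 ± 0.14 (SE; limma adjusted p = 0.00068), with the groups well apart and with 16.7% of the 12657 genes called higher and 11.5% lower. Rescaling every library to the same sum turns the balance of that background, to 1340 genes higher and 1942 lower, against 2109 higher and 1461 lower as deposited. Under it, *Sprr1a* still rose, by 1.51. The *Sprr2a* sum was at 946 and 843 FPKM in knockout and at 1274 and 1093 FPKM in WT organoids, with no overlap. Its log2 change was -0.40 ± 0.19 (SE; limma adjusted p = 0.165), with a 95% interval of -0.86 to 0.05. Among the copies, the change was -0.35 for *Sprr2a1*, -0.54 for *Sprr2a2* and 0.00 for *Sprr2a3*, none called. *Sprr2a* stood at 12.1 and 10.8 times the *Sprr1a* level, per length, in knockout organoids, and at 46.7 and 48.6 times in WT organoids.

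**Figure D2:**
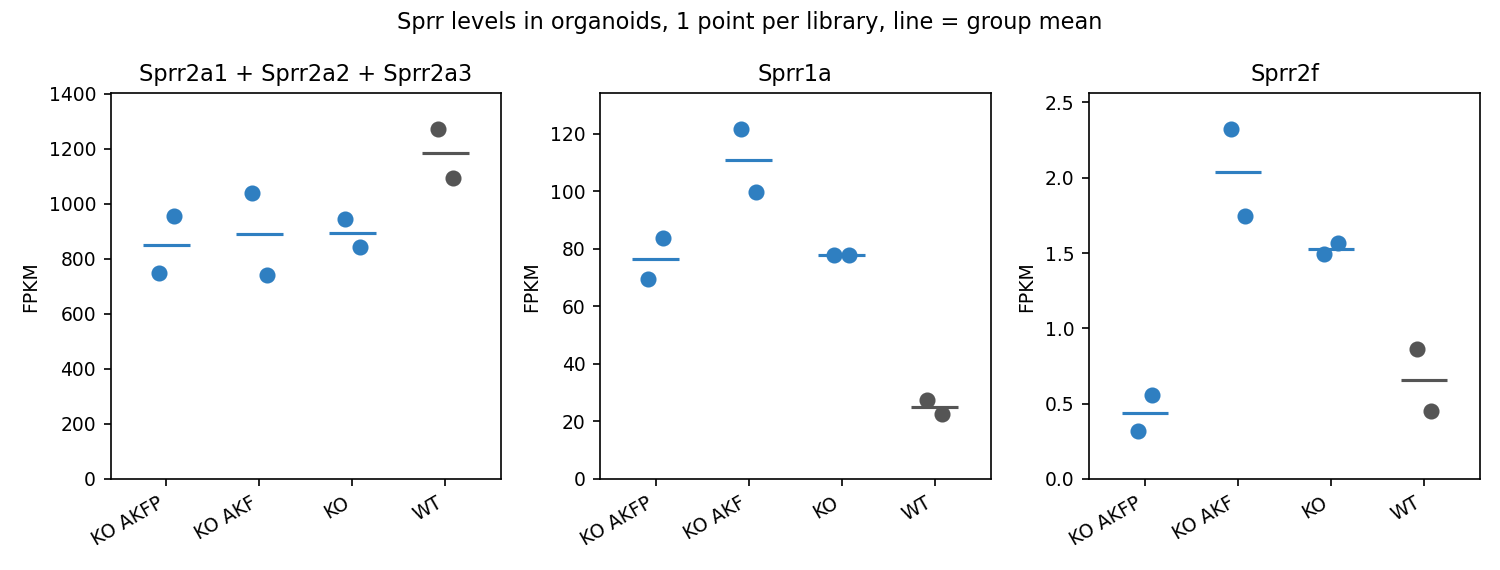
FPKM (y, from 0) of the Sprr2a sum, Sprr1a and Sprr2f in organoids by group (x), with 1 point per library and a line at the mean of 2 libraries. Sprr1a is at 22.5 and 27.3 FPKM in WT organoids and at 69.4 FPKM or more in each of the 6 knockout libraries.

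With the retroviral factors, neither *Sprr1a* nor the *Sprr2a* sum was called against knockout organoids without them. *Pla2g2a* set the AKFP organoids apart, at 610 and 592 FPKM against 8.17 to 15.7 FPKM in the other organoid libraries. Whether the AKFP organoids differed from the others in more than the factors was not tested. *Sprr1a* was at 69.4 and 83.6 FPKM with AKFP, 122 and 99.6 FPKM with AKF, and 77.9 and 77.9 FPKM in knockout organoids without a factor. AKFP organoids overlapped knockout organoids, with a change of -0.03 (limma adjusted p = 0.877) and a 95% interval of -0.36 to 0.30, where 13.2% of genes were called higher and 13.2% lower. This interval does not reach the WT level, which lies 1.62 below knockout on the same scale. AKF organoids lay above knockout organoids by 0.49 ± 0.14 (SE; limma adjusted p = 0.874), in a comparison where 0.0395% of genes were called higher and 0.0079% lower. Between the infected groups, AKFP was lower than AKF by the test, with a change of -0.53 ± 0.14 (SE; limma adjusted p = 0.0344) and 12.7% of genes called lower and 12.8% higher. Under equal sums that background was 2549 genes higher and 1157 lower, against 1626 and 1613 as deposited, and the *Sprr1a* change was -0.40 (limma adjusted p = 0.0453). The call was lost without the first AKFP library (change -0.39, limma adjusted p = 0.142), the second AKFP library (-0.66, limma adjusted p = 0.0610, with 288 genes higher and 683 lower) or the first AKF library (-0.38, limma adjusted p = 0.155), and also with no filter on low values (limma adjusted p = 0.0868) or only the compared groups in the fit (limma adjusted p = 0.0689). The *Sprr2a* sum was at 747 and 956 FPKM with AKFP, 1038 and 741 FPKM with AKF, and 946 and 843 FPKM without a factor, all overlapping. Its change was -0.08 for AKFP against knockout, with a 95% interval of -0.53 to 0.38 (limma adjusted p = 0.774), -0.03 for AKF against knockout, with a 95% interval of -0.48 to 0.43 (limma adjusted p = 1), and -0.05 for AKFP against AKF, with a 95% interval of -0.51 to 0.40 (limma adjusted p = 0.855).

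**Figure D3:**
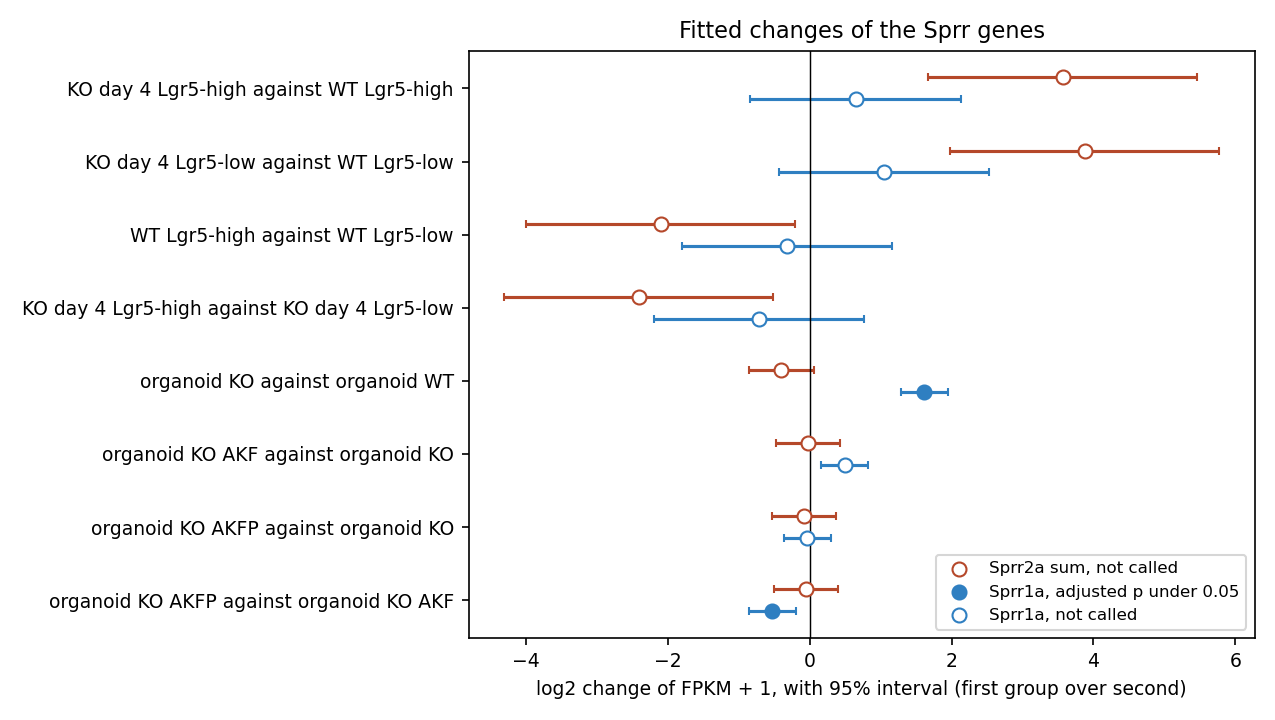
Fitted log2 change of FPKM + 1 (x; first-named group over second) with its 95% interval for the Sprr2a sum and Sprr1a in 8 comparisons (y); filled points have a limma adjusted p under 0.05. Only Sprr1a has filled points, at 1.62 for knockout against WT organoids and at -0.53 for AKFP against AKF.

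Across the 7 tissue groups, the order of mean levels from low to high was nearly the same for both. For the *Sprr2a* sum it ran WT Lgr5-high, day 3 Lgr5-high, WT Lgr5-low, day 3 Lgr5-low, day 4 Lgr5-high, day 4 Lgr5-low, day 6, and the only neighbours to overlap were WT Lgr5-low and day 3 Lgr5-low. At 6.26 to 31.8 FPKM, WT Lgr5-low also overlapped day 4 Lgr5-high, at 26.9 to 64.0 FPKM, which is not its neighbour. For *Sprr1a* the 2 day 3 libraries came after WT Lgr5-high and before WT Lgr5-low, and no neighbours overlapped. In organoids, AKFP, AKF and knockout overlapped for the *Sprr2a* sum and WT lay above them. For *Sprr1a*, AKFP overlapped knockout, and WT lay lowest.

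*Sprr2a1* and *Sprr2a2* kept nearly fixed shares of the *Sprr2a* sum in 19 libraries, while the small share of *Sprr2a3* varied more in proportion. *Sprr2a1* made up 47.5% to 54.7% of the sum in 19 libraries, *Sprr2a2* 37.6% to 45.9% in the same 19, and *Sprr2a3* 4.83% to 10.8% in all 20. The exception was the second WT Lgr5-low library, where *Sprr2a2* is listed at 0 and *Sprr2a1* made up 90.3%. For copies with identical coding sequence such shares can come from how shared fragments were divided, which the files do not record, so no difference between *Sprr2a1* and *Sprr2a2* is read from them. *Sprr2a1* was at 668 and 340 FPKM at day 6, and *Sprr2a3* at 101 and 43.3 FPKM.

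**Figure D4:**
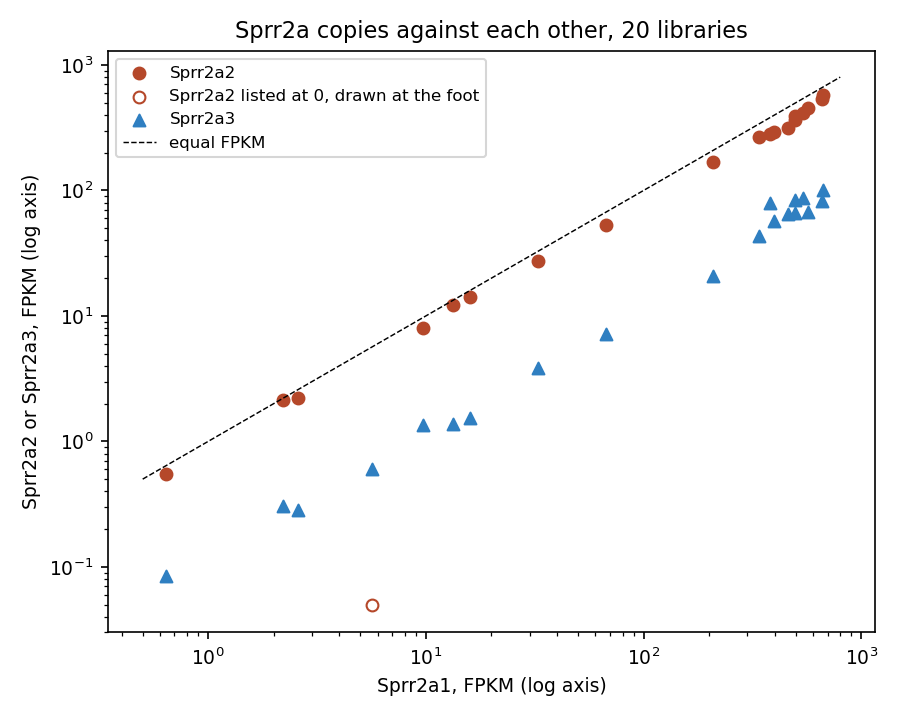
FPKM of Sprr2a2 (circles) and Sprr2a3 (triangles) on the y axis against Sprr2a1 on the x axis, both log axes, with 1 point per library (20 libraries) and a dashed line at equal FPKM. Sprr2a2 runs just under the line, except in 1 library where it is listed at 0 (open circle, drawn at the foot), and Sprr2a3 runs parallel below it.

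Of 12 other listed genes of the family, all stayed under 1 FPKM in every tissue library and 7 were at 0 in all 20 libraries, *Sprr1b* and *Sprr3* among them. *Sprr2f* alone reached 1 FPKM, in knockout and AKF organoids only, so it passed the filter through the groups where it is high, and its calls support nothing by themselves. It was at 1.49 and 1.56 FPKM in knockout organoids and at 0.865 and 0.448 FPKM in WT organoids, a change of 0.62 ± 0.17 (SE; limma adjusted p = 0.0331). The call was lost without the first or second knockout library (limma adjusted p = 0.107 and 0.124), without the second WT library (0.155) and with no filter on low values (0.0892). With AKFP, *Sprr2f* was at 0.321 and 0.556 FPKM, against 2.33 and 1.75 FPKM with AKF, with a change of -1.077 (limma adjusted p = 0.00693). Against knockout it fell by 0.82 (limma adjusted p = 0.0163), a call lost without any 1 of the 4 libraries compared (limma adjusted p of 0.0503 to 0.0754).

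Most other envelope genes of the complex were near 0, whereas some partners used by many epithelia were not. Of 34 other envelope genes of the complex, 33 stayed under 1 FPKM in all tissue libraries, among them *Ivl* (involucrin), which was at 0 in all 12. *Lor* (loricrin) was the exception, at 1.52 FPKM in the day 3 Lgr5-high library. *Tgm1*, the transglutaminase of keratinocytes, did not exceed 0.234 FPKM in any library. *Tgm2*, the widely expressed transglutaminase, was at 24.9 and 24.4 FPKM at day 6 against 47.4 to 67.6 FPKM in WT tissue, and it fell by 0.33 in knockout organoids (limma adjusted p = 0.0187). Among the partners, the desmosomal genes *Dsp* (desmoplakin) and *Jup* (plakoglobin) were at 16.4 to 68.3 FPKM and 21.9 to 43.1 FPKM over the 12 tissue libraries. Of the 9 tested of the 18 envelope partners and cross-linking enzymes, 2 rose and 2 fell in knockout organoids against WT, beside 16.7% and 11.5% of all genes. Those that rose were *Anxa1*, annexin A1 (2.15 ± 0.13, SE; limma adjusted p = 0.000373), and *Evpl*, the linker envoplakin (0.38 ± 0.08, SE; limma adjusted p = 0.0135). Those that fell were *Tgm2* and *Pkp1*, a desmosomal plakophilin (-0.44, limma adjusted p = 0.0248).

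Of 18 markers of squamous keratinocytes, 11 stayed under 1 FPKM in all tissue libraries. *Trp63*, which encodes the master regulator p63, did not exceed 0.012 FPKM in any library, and the basal keratins *Krt5* and *Krt14* did not exceed 0.72 FPKM. *Krt6a*, a keratin of stressed epidermis, was at 3.11 and 0.266 FPKM at day 6 and at 0 in the other 10 tissue libraries. The summed level of the 18 markers was 297 and 120 FPKM at day 6 against 77.3 to 134 FPKM in WT, of which *Sfn*, the 14-3-3 protein stratifin, made up 277 and 114 FPKM at day 6 and 69.1 to 129.8 FPKM in WT. In knockout organoids *Sfn* (1.26, limma adjusted p = 0.000724) and *Ly6d* (1.74, limma adjusted p = 0.0243) rose, 2 of the 3 listed genes tested there, beside 16.7% of all genes.

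Among the S100 genes of the epidermal differentiation complex, those that passed the filter showed higher values at day 6 as well. Of the 14, 7 passed the filter, and these had both day 6 libraries above all 4 WT libraries, as did 19.3% of all genes, with a median difference from the higher WT gate of 0.87, against -0.27 over all genes. *S100a6* was at 168 and 65.2 FPKM at day 6 against 2.40 to 10.02 FPKM in WT, and *S100a11* at 468 and 192 FPKM against 37.4 to 65.1 FPKM in WT. *S100a14* was at 28.5 and 13.5 FPKM at day 6 against 0.659 to 2.01 FPKM in WT. In knockout organoids against WT, 3 of 8 rose and 1 fell, beside 16.7% and 11.5% of all genes. Those that rose were *S100a6* (2.04 ± 0.12, SE; limma adjusted p = 0.000373), *S100a14* (0.92 ± 0.16, SE; limma adjusted p = 0.00664) and *S100a11* (0.81 ± 0.12, SE; limma adjusted p = 0.00372). *S100a5* fell by 0.94 (limma adjusted p = 0.0226), with 0.429 and 0 FPKM in knockout and 1.62 and 1.003 FPKM in WT organoids. The *S100a5* call was lost without the second knockout library (limma adjusted p = 0.105), without the first WT library (limma adjusted p = 0.115) and with no filter on low values (limma adjusted p = 0.0642).

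**Figure D5:**
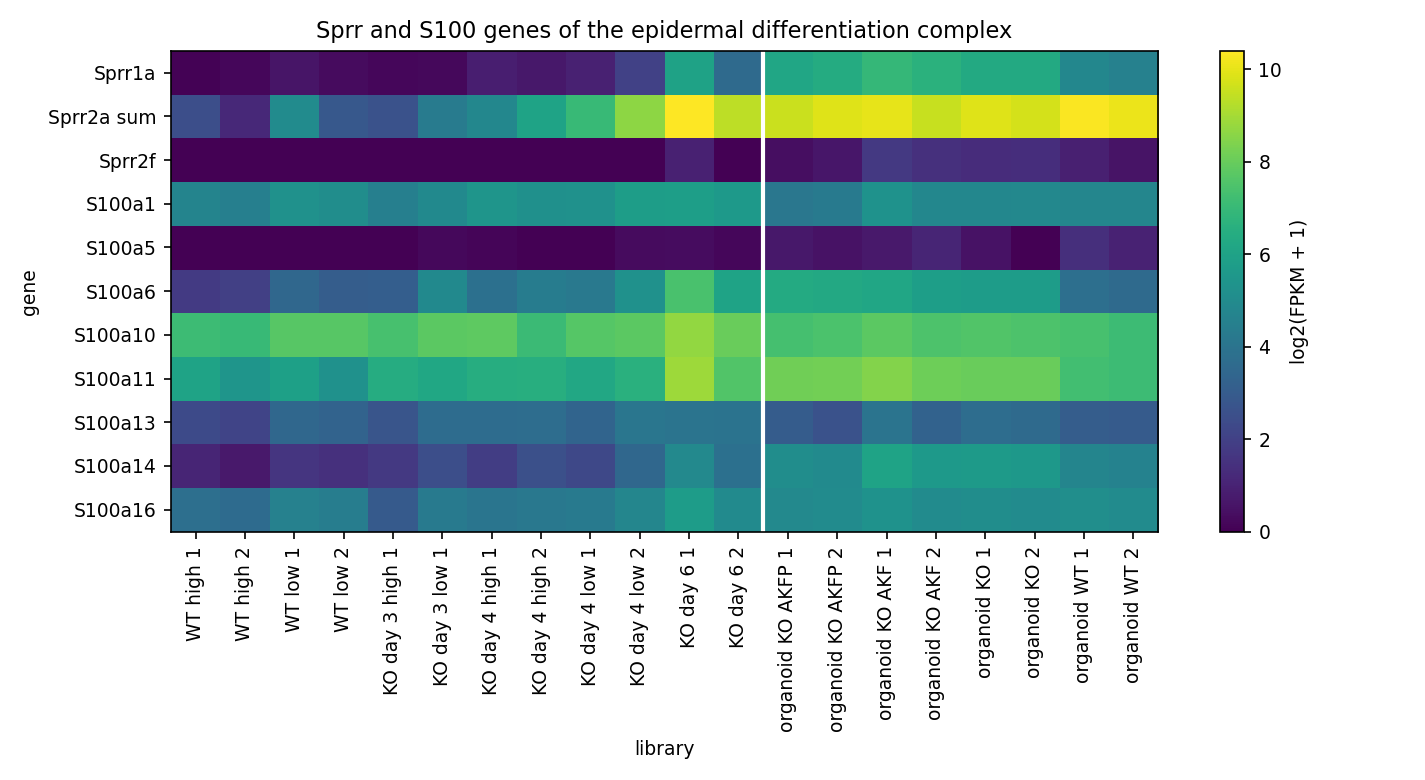
Colour gives log2(FPKM + 1) of the Sprr genes and of the S100 genes of the epidermal differentiation complex that reached 1 FPKM (y) in 20 libraries (x; tissue left of the white line, organoids right). S100a6, at 168 and 65.2 FPKM in the day 6 libraries, and Sprr1a are brighter at day 6 than in WT tissue and in knockout organoids than in WT organoids, and the Sprr2a sum is bright at day 6 and in all organoids.

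Of the AP-1, ETS and Krüppel-like factors listed, some fell in tissue at day 4 and others rose in organoids. In knockout Lgr5-high cells at day 4, 3 of the 15 tested genes of that list fell, beside 0.326% of all genes. These were *Fosb* (-1.97, limma adjusted p = 0.0337), *Fos* (-1.62, limma adjusted p = 0.0422) and *Jun* (-1.57, limma adjusted p = 0.0316). In the same comparison *S100a13* (1.46, limma adjusted p = 0.0360) and *Tff3*, a goblet cell trefoil peptide (1.77, limma adjusted p = 0.0497), rose. All 5 of these calls were lost (0 of 5) without the first knockout library, and likewise without either WT library, with no filter, with equal sums and with only the compared groups fitted, and 2 of 5 were kept with median-of-ratios scaling. At day 6, 7 of the 15 had both libraries below all WT libraries and 1 had both above, beside 26.2% and 19.3% of all genes. *Jun* was at 87.4 and 109 FPKM at day 6 against 298 to 488 FPKM in WT. The list genes highest against the higher WT gate were *Klf6* (0.30), *Klf4* (0.29) and *Fosl1* (0.20). In knockout organoids 8 of 15 rose and none fell, beside 16.7% and 11.5% of all genes. Those that rose were *Junb*, *Maff*, *Jund*, *Atf3*, *Klf6*, *Fosl1*, *Klf4* and *Jun*, by 0.50 to 0.81. With AKFP against AKF, 10 fell and 2 (*Ehf* and *Klf5*) rose, beside 12.7% and 12.8% of all genes. *Fosb*, which both retroviral mixes carry, was at 12.4 and 9.77 FPKM with AKFP, 25.8 and 26.7 FPKM with AKF, 38.2 and 25.4 FPKM in knockout and 31.8 and 33.2 FPKM in WT organoids.

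Genes of the fetal-like, YAP-associated programme of regenerating gut were also higher at day 6 and in knockout organoids. Of the 20 listed, 18 matched a symbol, and 15 passed the filter, *Anxa1*, *Anxa10* and *Il1rn* only through day 6. These 15 had both day 6 libraries above all WT libraries, as did 19.3% of all genes, with a median difference of 1.91. For the 3 that entered through day 6 the filter favours that direction. *Ly6a* was at 122 and 50.8 FPKM at day 6 against 0.294 to 1.60 FPKM in WT tissue. *Cldn4*, a tight junction claudin, was at 288 and 115 FPKM against 18.7 to 25.2 FPKM, and *Anxa10* was at 28.4 and 8.19 FPKM against 0 to 0.143 FPKM. In knockout organoids the list had a median change of 1.48, against 0.01 over all genes. Of the 14 tested there, 11 rose and none fell, beside 16.7% and 11.5% of all genes. Among them were *Ly6a* (3.05 ± 0.38, SE; limma adjusted p = 0.00215), *Anxa10* (2.47 ± 0.22, SE; limma adjusted p = 0.000731) and *Cldn4* (1.71 ± 0.07, SE; limma adjusted p = 0.000155), and the growth factor *Areg* (1.66 ± 0.10, SE; limma adjusted p = 0.000373). At day 4 none of the list was called in either gate.

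The bacteria-induced defence list, the setting in which *Sprr2a* is best known in gut, held 9 of 14 genes above WT at day 6 and 1 below, beside 19.3% and 26.2% of all genes. *Saa1* and *Saa3* passed the filter only through day 6. *Duoxa2*, the maturation factor of the hydrogen peroxide-producing oxidase DUOX2, was at 149 and 57.1 FPKM at day 6 against 0.718 to 6.06 FPKM in WT. *Reg3g*, a bactericidal lectin, was at 2860.1 and 856 FPKM against 35.3 to 426 FPKM, and *Retnlb*, a goblet cell protein that type 2 cytokines also induce, at 69.5 and 8.45 FPKM against 0.156 to 2.33 FPKM. In knockout organoids, 10 of 11 rose and 1 fell, beside 16.7% and 11.5% of all genes, while the *Sprr2a* sum was not called. The largest rises in this list were *Zg16*, a goblet cell lectin (2.60; limma adjusted p = 0.000663), *Duoxa2* (2.51 ± 0.11, SE; limma adjusted p = 0.000161) and *Duox2* (1.70 ± 0.12, SE; limma adjusted p = 0.000444). *Reg3a* fell by 1.64 (limma adjusted p = 0.00131). Of the type 2 cytokine list, 6 of 11 genes lay above WT at day 6, beside 19.3% of all genes. In knockout organoids 5 of 7 rose, beside 16.7% of all genes.

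The summed markers of other cell types varied as well. Paneth cell markers summed to 150255 and 61120 FPKM at day 6 against 38327 to 52985 FPKM in WT tissue, goblet cell markers to 4277 and 6244 FPKM against 906 to 4340 FPKM, and enterocyte markers to 3567 and 3864 FPKM against 301 to 4142 FPKM. Tuft cell markers summed to 7.76 and 28.1 FPKM at day 6 against 7.18 to 20.2 FPKM in WT. At day 4, tuft cell markers summed to 20.4 and 69.9 FPKM in knockout Lgr5-high cells and 20.7 and 45.7 FPKM in knockout Lgr5-low cells, the second library being the higher in each. Stromal and endothelial markers summed to 6.36 to 25.2 FPKM in the 4 knockout libraries of day 4, above the 1.44 to 4.65 FPKM of WT. These sums were mainly *Vim* (vimentin), and 8 of the 10 markers stayed under 1 FPKM in all tissue libraries. *Vim* alone averaged 11.9 FPKM in knockout Lgr5-high and 16.1 FPKM in knockout Lgr5-low cells at day 4, and 7.63 FPKM at day 6. Goblet cell markers summed to 3121 and 4428 FPKM in knockout Lgr5-high cells at day 4 against 1247 and 906 FPKM in WT Lgr5-high cells. In organoids, enterocyte markers summed to 1480 and 1520 FPKM in knockout and to 2922 and 2775 FPKM in WT. Of these markers 5 of 8 fell, beside 11.5% of all genes, while 7 of 8 goblet cell markers rose, beside 16.7% of all genes. Of the 61 list genes called in knockout against WT organoids, 46 to 61 kept their call and direction under the other settings. Immune cell markers summed to 6.56 and 6.60 FPKM at day 6 against 5.82 to 11.97 FPKM in WT, and stromal and endothelial markers to 6.00 and 13.2 FPKM against 1.44 to 4.65 FPKM, with none of either list at 0 in all tissue libraries. The part of these cell types in the *Sprr* values was not tested.

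By Pearson correlation of log2(FPKM + 1) over the 12 tissue libraries, among 7998 named genes that reached 5 FPKM, the genes most like *Sprr1a* were *Vill* (r = 0.984), *Pwwp2b*, *Gprc5a*, *Anxa3*, *Anxa8*, *Cxcl16*, *Areg* and *Pdlim7* (r = 0.966). Those most like the *Sprr2a* sum were *Fbxo4* (r = 0.981), *Ckap4*, *Card19*, *Slc25a22*, *Duoxa2*, *Slc35d1*, *B4galt4* and *Neu1* (r = 0.973). The 12 tissue libraries include the day 6 ones that chose the members, so the tissue lists are not independent of that choice. *Sprr1a* was at or below 3.07 FPKM in the tissue libraries other than day 6. Over the 8 organoid libraries, among 7824 genes, the genes most like *Sprr1a* were *Krt7* (r = 0.991), *Gsn*, *Zc3h10*, *F3*, *Hepacam2*, *Anxa3*, *Anxa10* and *Arf2* (r = 0.982). Those most like the *Sprr2a* sum there were *Sesn1* (r = 0.982), *Rtraf*, *Gabarap*, *Sphk2*, *Rplp0*, *Mapk3*, *Sqor* and *Prelid1* (r = 0.929). *Anxa3* was the gene that both *Sprr1a* lists shared, and the *Sprr2a* lists shared none. These libraries share groups and depth, and the lists describe likeness in these libraries only: by rank correlation 0 of the 8 tissue genes of *Sprr1a* and 3 of the 8 of the *Sprr2a* sum were again among the first 8.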

How the data were processed

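The kit was NEBNext Ultra RNA, per the labels' protocols, which do not say whether strand was kept. The tools StringTie 1.3.3b and HISAT2 2.1.0 and the build mm10 are named in the submitters' processing notes. In tissue the authors deposited FPKM for each gene, as their headers state. No unit stands in the organoid table, whose deposited values were taken as FPKM from their range and format. GENCODE M21 gave symbols for 54723 of the 54838 gene rows. Values were analysed as log2(FPKM + 1) with limma 3.58.1 (trend, R 4.3.3), 1 mean per group, in 10 tissue libraries (day 3 left out) and 8 organoid libraries. Genes at 1 FPKM or more in at least 2 libraries were tested (12899 and 12657), with the *Sprr2a* sum as 1 further row, two-sided, with Benjamini-Hochberg adjustment over all of them. Fit and calls were tested on simulated data. Day 6 and day 3 have no test. Depth was estimated from single-exon genes and limits low values.

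The members and the 16 gene lists were chosen with earlier results of these data known. Genes named are the 4 members and their sum, family genes reaching 1 FPKM, list genes called in a test (by count and examples where a list had many), the 3 list genes highest at day 6, and the 8 genes most like the members. Replicate numbers were not used as pairs. Alternatives were another pseudocount, no filter, 2 other scalings, a replicate block, only the compared groups, and each library left out.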

Additional observations from a re-analysis of the deposited data

Results flagged for a closer look

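The *Sprr2a* sum moved in opposite directions in the 2 sets: every knockout library lay above every WT library of its gate at day 4 in tissue, with a log2 change of 3.57 in Lgr5-high and 3.88 in Lgr5-low cells, and every knockout library lay below every WT library in organoids, with a change of -0.40. None of these changes passed limma's adjusted p of 0.05, and the difference between tissue and organoids was not tested, because the sets were deposited and fitted apart.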

How the results depend on the processing

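Among the 16 main comparisons of *Sprr1a* and the *Sprr2a* sum, 141 recomputed values kept direction and side of the threshold, 10 changed sign and 5 lost a call. Rescaling to equal sums gave AKFP against knockout 0.0948 for *Sprr1a* and 0.0487 for the *Sprr2a* sum, 0.0185 for *Sprr2a1* and 0.125 for *Sprr2a2*, and AKFP against AKF 0.0716 for the sum, 0.0947 for *Sprr2a1* and 0.122 for *Sprr2a2*, all opposite in sign to values near 0; AKF against knockout of *Sprr2a2* became 0.00277, and 0.000759 with median-of-ratios scaling. With a pseudocount of 0.1, *Sprr2a2* in WT Lgr5-high against Lgr5-low became 0.0112. The *Sprr1a* change of -0.53 for AKFP against AKF was not called without a filter or with only the compared groups fitted. Leaving out 1 library, it ranged over -0.670 to -0.383; AKF against knockout over -0.270 to 0.217 for the sum, -0.335 to 0.175 for *Sprr2a1*, -0.274 to 0.272 for *Sprr2a2* and -0.0209 to 0.359 for *Sprr2a3*; AKFP against knockout over -0.164 to 0.0998 for *Sprr1a*, -0.257 to 0.0978 for the sum, -0.264 to 0.0446 for *Sprr2a1* and -0.223 to 0.216 for *Sprr2a2*; AKFP against AKF over -0.296 to 0.190 for the sum, -0.285 to 0.225 for *Sprr2a1* and -0.275 to 0.271 for *Sprr2a2*; knockout against WT organoids over -0.191 to 0.189 for *Sprr2a3*; and WT Lgr5-high against Lgr5-low over -2.79 to 1.14 for *Sprr2a2*. The cause was not tested. *Sprr1a* fell out of the tissue comparisons when only the compared groups were fitted, because too few libraries reached 1 FPKM.

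Same-numbered libraries did not deviate together throughout (correlations 0.023 to 0.52 in tissue, -0.039 to 0.091 in organoids), so the numbers were not used as pairs, although the gates of 1 day correlated at 0.44 in WT and 0.339 at day 4; with the replicate block, the *Sprr1a* change in knockout organoids stayed at 1.62, and no call of *Sprr1a* or the *Sprr2a* sum changed. Counts of all called genes moved by over 1.5 times: knockout against WT Lgr5-high had 94 higher and 42 lower as reported, and 0 and 0 with only the compared groups, 21 and 13 with equal sums and 190 and 92 with the replicate block. The gate comparison at day 4 had 0 and 0, and 46 higher and 230 lower with the replicate block. The second day 4 Lgr5-high library left out gave 374 and 323. AKFP against knockout had 1666 higher and 1671 lower, and 2608 and 1148 with equal sums. With 2 libraries a group and FPKM without counts, levels near 0 have no counting interval.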
